A study of Mus musculus with 24 samples.

Results

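The late 1-cell (L1C) stage of mouse development was described here from 6 of the 24 libraries of the series, 3 libraries of RNA captured with an antibody against N6-methyladenosine (m6A) and 3 of input RNA. Members were chosen by the stage and library type in the sample labels. The 24 libraries also hold 6 SLIM-seq libraries of metaphase II (MII) oocytes, 6 of late 2-cell (L2C) embryos and 6 RNA-seq libraries, 3 of a *Ythdc1* knockdown and 3 of its control, which were not used here. All 6 L1C libraries came from untreated B6D2F1 embryos (C57BL/6J x DBA/2N). Both parents were B6D2F1, the mothers had been superovulated, and the embryos reached L1C in KSOM culture from the pronuclear stage. SLIM-seq is m6A immunoprecipitation (IP) for small amounts of RNA, and the input libraries carry RNA that did not go through the IP. MII oocytes came from superovulated B6D2F1 females too. Nothing in the labels says whether replicates came from separate groups of mice, so p-values measure the spread between these libraries, which may be technical. A note among the study's data statements names replicates 1 and 2 of MII and L1C and replicates 2 and 3 of L2C as used after quality control. It follows the proteomics deposit and does not say that it is about SLIM-seq, which the study describes in triplicate, so all libraries were used, and some counts are also given for those 12 libraries, called the 12-library subset.

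m6A is a methyl group that a complex built on Mettl3 and Mettl14 writes on adenosines of mRNA, typically within a short motif around GGACT. Alkbh5 and Fto can remove it, and reader proteins of the Yth and Igf2bp families bind it and are known to steer decay, storage, splicing and translation of the marked RNA. The late 1-cell embryo still lives mainly on mRNA stored by the oocyte, while the first transcription of its own genome begins. The methods describe no fragmentation of RNA before the IP, so the quantity given below, log2 IP/input, is a ratio of 1 value per gene and locates no methylated base. A gene is called enriched when it is higher in the IP, and depleted when it is higher in the input, at a Benjamini-Hochberg adjusted p under 0.05 in the quasi-likelihood test of edgeR.

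Short stretches of coding sequence are shown for leading mRNAs of both directions, because the motif was found in both. For mRNAs among the most enriched and the most depleted of nuclear genes with a mean of at least 20 CPM and no overlapping span, the GGACT match in the coding sequence nearest the stop codon is printed, where there was one. Sequences are GENCODE transcripts on GRCm38, 5′ to 3′ on the strand of the mRNA with T for U. The capitals mark GGACT, with 10 bases on each side.
*Wdr26*, enriched, exon 12 of 14, chr1:181182870-181182894, minus strand: ttcatttatgGGACTtgcaagacag
*Oosp1*, enriched, exon 2 of 5, chr19:11688681-11688705, minus strand: tttatctaccGGACTtactcctgcg
*Ptk2b*, depleted, exon 31 of 31, chr14:66154160-66154184, minus strand: ccctgagtgaGGACTgcaagcggca
*Stk36*, depleted, exon 26 of 27, chr1:74634396-74634420, plus strand: gagtcagtcaGGACTgctcaacctt

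The match lies 320 bases before the end of the coding sequence in *Wdr26* and 372 bases in *Oosp1*. It lies 113 bases before that end in *Ptk2b* and 487 in *Stk36*. The transcripts of *Cnot6l* (3170 bases) and *Suz12* (4373 bases) hold no GGACT at all. Both were among the 4 most enriched nuclear mRNAs with a mean of at least 20 CPM, a span of their own and IP and input libraries apart. *Olfr624*, a depleted mRNA, holds 7 matches, none of them in its coding sequence with the 10 bases on each side. Only the sense strand was searched. Of 16118 tested protein-coding genes with a transcript, 90.3% hold at least 1 GGACT, and 2.46% of coding windows of 25 bases hold one. A match is a description of the sequence and says nothing of methylation at that base.

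The L1C inputs held 24032596, 21420289 and 18969846 estimated counts, and the L1C IPs 20319675, 26785192 and 34455821. Between 3 libraries of a kind, Pearson's r of log2 CPM over 21950 genes was 0.985 to 0.991, against 0.960 to 0.971 between an IP and an input. Counts of replicates differed by more than sampling noise in every pair, with a chi-square per degree of freedom of 15.9 to 31.8, so no library was counted as a copy of another. Oocyte markers summed to 10684 to 11277 CPM in the inputs and 11101 to 11816 in the IPs, with none of 15 at the floor of 3 counts per library. Of the markers of other cells, those of cumulus cells summed to 36.9 to 42.7 CPM in the inputs and 37.5 to 44.5 in the IPs, with 4 of 13 at the floor in all inputs and 3 in all IPs. Sperm markers (6 genes) summed to 2.89 to 3.11 CPM in the inputs and 6.10 to 6.54 in the IPs, oviduct markers (5 genes) to 2.19 to 4.65 and 1.58 to 2.57, and blood markers (5 genes) to 0.920 to 1.28 and 1.59 to 3.17. Sperm and blood markers did not overlap between IP and input, and their part in other results was not tested.

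The IP separated a large part of the L1C transcriptome from its input in both directions. Of 21950 genes tested, 3463 were enriched (15.8%) and 3988 were depleted (18.2%). With scaling to library size alone in place of TMM the split was 6372 to 2613, since that scaling raised the median log2 IP/input of all genes by 0.30, from 0.07 to 0.37, and every direction below is relative to the TMM centre. In the 12-library subset, which leaves 2 libraries a group, 1957 genes were enriched and 3026 depleted. Of 16163 protein-coding genes 2586 were enriched (16%) and 3626 depleted (22.4%). Of 5787 other genes 877 were enriched (15.2%) and 362 depleted (6.26%), so the shares lay apart for depletion and close together for enrichment. Long intergenic non-coding RNAs had a median log2 IP/input of 0.40, with 314 of 1910 enriched (16.4%) and 79 depleted (4.14%). Processed pseudogenes, whose reads can be shared with their parent genes, had a median of 0.30, with 174 of 1109 enriched (15.7%) and 61 depleted (5.50%). Both enriched shares are near the 15.8% of all genes. A log2 IP/input of more than 1 in size was reached by 1425 enriched and 1817 depleted genes. Of the genes tested, 262 held no count in any L1C library.

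**Figure D1:**
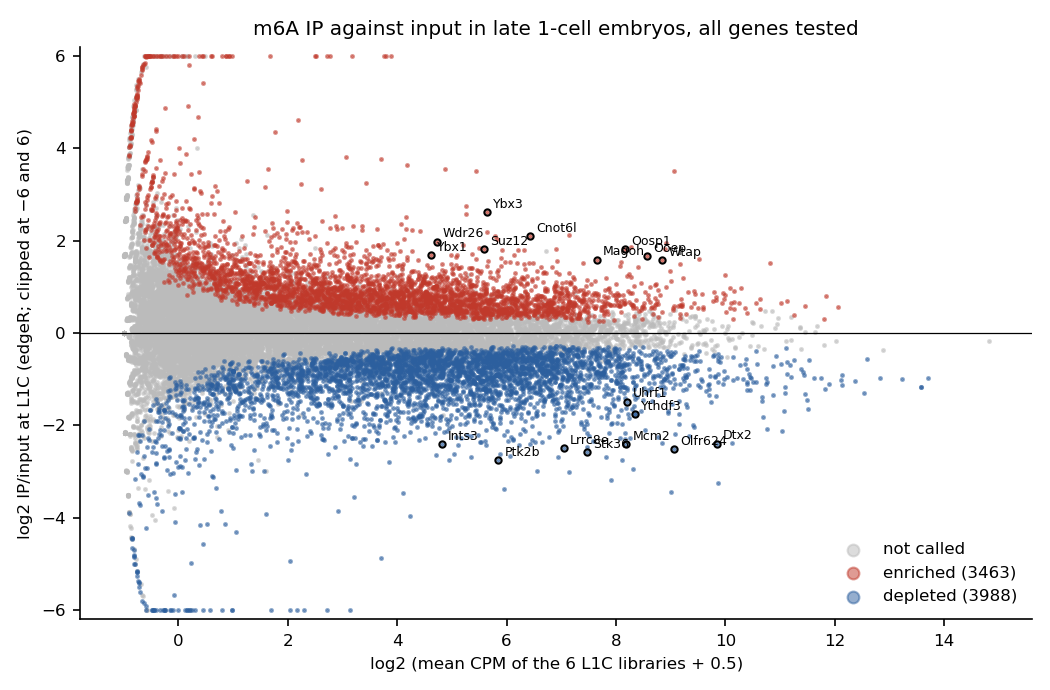
Each point is a gene tested, with its mean level in the 6 L1C libraries on the x axis (log2 CPM plus 0.5) and its log2 IP/input on the y axis (clipped at 6 in size). Red and blue points are the 3463 enriched and 3988 depleted genes, which spread over the whole range of levels, and circles mark named genes.

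The most enriched nuclear mRNAs were ranked among those with a mean of at least 20 CPM, a span of their own and IP and input libraries apart. They code for a deadenylase subunit, oocyte proteins, a Polycomb subunit and RNA-binding proteins. *Cnot6l*, a catalytic deadenylase of the Ccr4-Not complex that shortens poly(A) tails of maternal mRNA (chr5:96070333-96164171), was at 133, 153 and 134 CPM in the IPs and at 36.3, 33.8 and 27.3 CPM in the inputs. Every IP library was thus above every input library, by 4.30-fold in the fit (log2 2.11 ± 0.18 SE, adjusted p = 3.97e-08). *Wdr26*, a subunit of the CTLH ubiquitin ligase, was at 41.1, 44.1 and 38.6 CPM against 12.3, 9.55 and 9.39 CPM (log2 1.98 ± 0.14, adjusted p = 4.6e-09). *Suz12*, a core subunit of the Polycomb repressive complex PRC2, was at 72.5, 79.5 and 71.7 CPM against 25.1, 22.9 and 15.0 CPM (log2 1.82 ± 0.22, adjusted p = 3.24e-06). That the IP and input libraries do not overlap in these mRNAs follows from the rule.

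Of the oocyte mRNAs, *Oosp1*, an oocyte-secreted protein (chr19:11667460-11691150), was at 484, 441 and 408 CPM in the IPs and 151, 120 and 105 CPM in the inputs (log2 1.83 ± 0.18, adjusted p = 1.91e-07). *Ooep*, a member of the subcortical maternal complex (chr9:78376109-78378725), was at 629, 547 and 547 CPM against 179, 162 and 202 CPM (log2 1.67 ± 0.16, adjusted p = 1.6e-07). *Ybx1*, a cold-shock protein that binds mRNA, was at 33.4, 32.4 and 44.6 CPM against 10.3, 13.7 and 10.4 CPM (log2 1.68 ± 0.25, adjusted p = 3.83e-05). *Magoh*, a core protein of the exon junction complex, was at 335, 291 and 277 CPM against 109, 87.6 and 103 CPM (log2 1.59 ± 0.20, adjusted p = 4.23e-06). All 4 kept IP and input libraries apart, as the rule asked. *mt-Co2*, an mRNA of mitochondrial DNA, had the highest ratio by the same rule, but its inputs were at 20.1, 0.0528 and 0 CPM against 114, 52.7 and 69.5 CPM in the IPs. The size of its ratio (log2 3.51 ± 1.19, adjusted p = 0.0278) thus rests on inputs that reach from none to over 20 CPM, and it was not called without the first IP library (adjusted p = 0.0749), without input replicate 2 or 3 (0.0866 and 0.0903) or by DESeq2 (0.0959).

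The most depleted mRNAs by the same criteria code for kinases, a replication protein and cell-surface proteins. *Stk36*, a serine/threonine kinase (chr1:74601445-74636894), was at 50.0, 50.3 and 51.8 CPM in the IPs and 239, 336 and 334 CPM in the inputs, 5.98-fold higher in the inputs (log2 -2.58 ± 0.13, adjusted p = 1.09e-10). *Lrrc8e*, a subunit of volume-regulated anion channels, was at 42.4, 41.2 and 35.1 CPM against 194, 235 and 241 CPM (log2 -2.50 ± 0.12, adjusted p = 1.09e-10). *Mcm2*, a subunit of the replicative helicase (chr6:88883474-88898780), was at 93.9, 90.1 and 93.8 CPM against 414, 499 and 562 CPM (log2 -2.41 ± 0.14, adjusted p = 5.74e-10). In each of these the IP libraries differ by little, and the inputs lie several times higher.

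*Ptk2b*, a focal adhesion kinase, showed the largest depletion of this set, at 8.80, 17.5 and 17.6 CPM in the IPs against 81.6, 142 and 75.4 CPM in the inputs (log2 -2.76 ± 0.26, adjusted p = 1.65e-07). *Ints3*, a subunit of the Integrator complex, was at 8.85, 9.60 and 7.79 CPM against 39.1, 47.2 and 53.2 CPM (log2 -2.41 ± 0.14, adjusted p = 4.65e-10). *Dtx2*, a ubiquitin ligase of the Notch pathway, was the most abundant, at 232, 254 and 391 CPM against 1135, 1893 and 1591 CPM (log2 -2.40 ± 0.22, adjusted p = 8.76e-08). *Olfr624*, annotated as an olfactory receptor, was at 92.8, 180 and 200 CPM against 869, 1270 and 582 CPM (log2 -2.52 ± 0.30, adjusted p = 2.74e-06). None of the depleted mRNAs named here had an IP library within the range of its inputs, as the rule for naming asked. Of all 21950 genes tested, 5051 had every IP above every input and 4760 had every IP below.

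**Figure D2:**
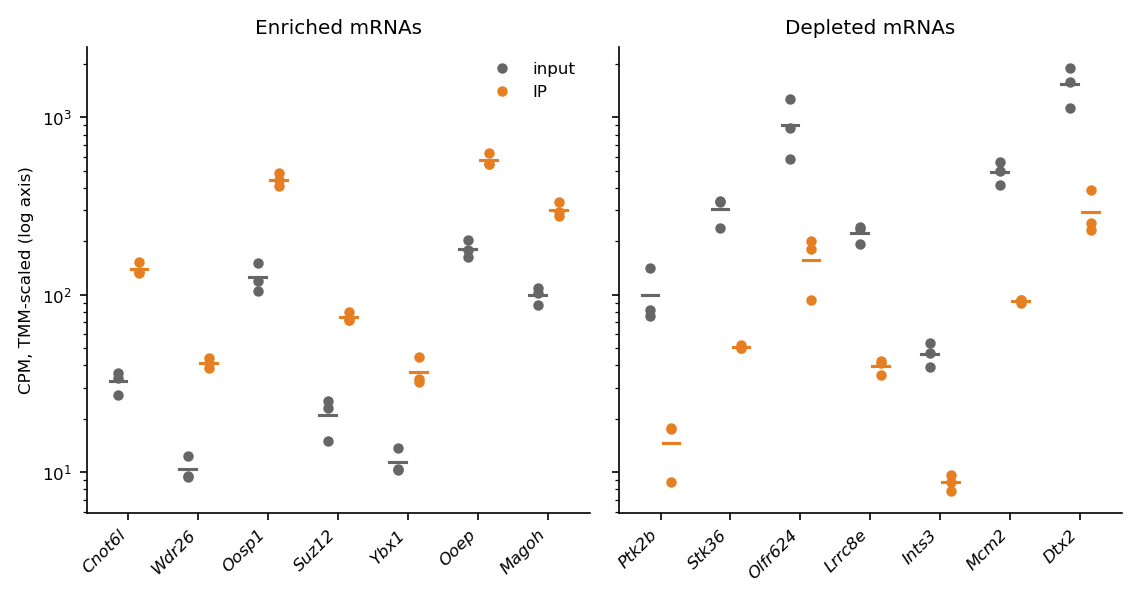
TMM-scaled CPM (log axis) of the leading enriched mRNAs (left) and depleted mRNAs (right) in each L1C library, with 3 grey points for inputs, 3 orange points for IPs and a bar at their mean. IP and input points do not overlap for any gene shown, as the rule for naming asked; *mt-Co2* is not drawn.

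RNAs that code for no protein were ranked by the same criteria, with a mean of at least 20 CPM, a span of their own and separated libraries. The leading enriched ones were the ribosomal RNAs of mitochondria. *mt-Rnr2* was at 555, 868 and 894 CPM in the IPs and 233, 222 and 141 CPM in the inputs (log2 1.96 ± 0.29, adjusted p = 3.41e-05), and *mt-Rnr1* had a log2 IP/input of 2.10 ± 0.25. The pseudogene *Gm29216* (log2 1.81 ± 0.23) and the predicted gene *Gm4739* (log2 1.83 ± 0.23) followed, and both can share reads with similar sequence elsewhere. On the depleted side stood *Nlrp1c-ps*, a pseudogene of an inflammasome gene, at 17.5, 26.6 and 18.5 CPM in the IPs against 148, 166 and 187 CPM in the inputs (log2 -3.00 ± 0.34, adjusted p = 1.29e-06). *Gm7133* was the most abundant of this set, at 550, 987 and 808 CPM against 3343, 3381 and 3470 CPM (log2 -2.12 ± 0.20). *Gm18774* (log2 -2.75 ± 0.22) and *Gm10823* (log2 -1.82 ± 0.27) were depleted as well.

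The mRNAs of the m6A machinery were themselves split. Of 26 members tested, 7 were enriched and 13 depleted (26.9% and 50%), beside 15.8% and 18.2% of all genes, with a median log2 IP/input of -0.36. With library size alone the split was 11 to 10, so the balance of the list depends on the scaling. Its enriched members include subunits of the writer: *Wtap*, the adaptor that holds the writer in nuclear speckles, was at 564, 801 and 697 CPM in the IPs and 284, 250 and 158 CPM in the inputs (log2 1.58 ± 0.24, adjusted p = 4.66e-05). *Mettl14*, the RNA-binding partner of the methyltransferase, was at 36.01, 38.4 and 48.0 CPM against 28.4, 29.9 and 26.0 CPM (log2 0.54 ± 0.17, adjusted p = 0.0192). Without the third IP library its adjusted p was 0.109. The catalytic subunit *Mettl3* went the other way, at 77.9, 74.5 and 63.3 CPM against 116, 98.6 and 124 CPM (log2 -0.65 ± 0.14, adjusted p = 0.00169), and its span overlaps *Tox4*. With library size alone its adjusted p was 0.0558. *Rbm15* (log2 -0.92 ± 0.14), *Zc3h13* (log2 -0.54 ± 0.11) and *Virma* (log2 -0.43 ± 0.12), which belong to the regulatory part of the writer, were depleted too. *Virma* was not called without the third IP library (adjusted p = 0.0602), without the first input library (adjusted p = 0.0699) or with library size alone (adjusted p = 0.431), and *Zc3h13* not with library size alone (adjusted p = 0.0852).

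Both erasers were depleted. *Alkbh5* was at 306, 288 and 382 CPM in the IPs and 549, 765 and 651 CPM in the inputs (log2 -1.01 ± 0.13, adjusted p = 8.11e-06), and *Fto*, whose span overlaps 8 others, was at -0.82 ± 0.19 on the log2 scale. Readers differed among themselves. *Ythdf3*, a cytoplasmic reader, was the most depleted member of the list, at 129, 154 and 162 CPM against 545, 519 and 435 CPM (log2 -1.75 ± 0.14, adjusted p = 2.11e-08). *Ythdf2*, the reader best known for decay of marked mRNA, was at 36.3, 37.5 and 38.4 CPM against 59.1, 62.6 and 58.9 CPM (log2 -0.69 ± 0.12, adjusted p = 0.000231). *Ythdf1*, which is known for translation of marked mRNA, was low but enriched, at 5.51, 5.88 and 4.62 CPM against 3.25, 3.17 and 2.91 CPM (log2 0.78 ± 0.17, adjusted p = 0.00121). So the cytoplasmic Ythdf readers lie on both sides of the centre.

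The nuclear reader *Ythdc1* was enriched, at 21.6, 22.9 and 24.2 CPM in the IPs and 14.3, 12.1 and 10.8 CPM in the inputs (log2 0.88 ± 0.17, adjusted p = 0.000456), with a span that overlaps *Gm43055*. *Ythdc2*, a helicase reader of meiotic cells, was depleted at 335, 472 and 473 CPM against 823, 866 and 770 CPM (log2 -0.94 ± 0.12, adjusted p = 5.34e-06). The Igf2bp readers, known for stabilising marked mRNA, were all depleted, with a log2 IP/input of -1.05 ± 0.16 for *Igf2bp1*, -0.73 ± 0.10 for *Igf2bp2* and -1.03 ± 0.12 for *Igf2bp3*. The hnRNP readers *Hnrnpa2b1* (log2 1.18 ± 0.16) and *Hnrnpc* (log2 0.43 ± 0.14) were enriched. *Prrc2a*, also described as a reader, was depleted (log2 -1.09 ± 0.22), and *Mettl5*, which methylates ribosomal RNA, was enriched (log2 0.58 ± 0.20, adjusted p = 0.0305). The enrichment of *Mettl5* passed the test in the main comparison but not without IP replicate 1, 2 or 3 or input replicate 3, where its adjusted p was 0.0541, 0.103, 0.066 and 0.167. Nor did it pass with the replicate block (0.0503), in a fit of the L1C libraries alone (0.0749) or without the filter on low counts (0.079). That of *Hnrnpc* was lost without the first IP library (adjusted p = 0.097) and without input replicate 2 or 3 (adjusted p = 0.0712 and 0.0766) and with the replicate block (adjusted p = 0.0531), and that of *Mettl14* also without the third input library (adjusted p = 0.0775). The 6 other members, *Pcif1*, *Rbmx*, *Zcchc4*, *Mettl16*, *Cbll1* and *Rbm15b*, did not pass the test, though *Pcif1*, *Mettl16*, *Cbll1* and *Rbm15b* did with library size alone (adjusted p = 0.049, 0.000686, 0.0212 and 0.0475). *Mettl16* also passed by DESeq2 (adjusted p = 0.019), and *Rbm15b* without the filter (1.04e-07), with the replicate block (0.0114) and without IP replicate 1 or 2 (0.0331 and 0.0232). *Rbm15b* was at 0, 0 and 1.45 CPM in the IPs and 0 in all inputs, so its p-values rest on the third IP library alone. In the 12-library subset 4 members were enriched, as without input replicate 3, and *Mettl14*, *Mettl5*, *Hnrnpc*, *Virma* and *Mettl3* were no longer called (adjusted p = 0.182, 0.311, 0.132, 0.114 and 0.0637).

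Machinery that removes maternal mRNA also fell on both sides. Of 55 genes of deadenylation, decapping and decay, 16 were enriched and 13 depleted, with a median of 0.04. These are 29.1% and 23.6% of the list, beside 15.8% and 18.2% of all genes, and 10 were enriched in the 12-library subset. Beside *Cnot6l*, the enriched members include *Pan3*, the RNA-binding subunit of the other deadenylase Pan2-Pan3, at 61.7, 65.2 and 60 CPM in the IPs against 19.8, 21.3 and 16.1 CPM in the inputs (log2 1.71 ± 0.15, adjusted p = 9.16e-08). The catalytic partner *Pan2* was depleted by contrast (log2 -2.02 ± 0.13, chosen after its values were seen). *Edc4*, the scaffold of the decapping complex, was depleted at 61.1, 58.6 and 62.8 CPM against 306, 424 and 439 CPM (log2 -2.68 ± 0.15, adjusted p = 3.9e-10). *Dcp1a*, the cofactor of the decapping enzyme, was at 237, 236 and 234 CPM against 720, 741 and 810 CPM (log2 -1.68 ± 0.11, adjusted p = 1.52e-09). The spans of *Pan3*, *Edc4* and *Dcp1a* each overlap 1 other gene.

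mRNA storage and cytoplasmic polyadenylation gave 10 enriched and 10 depleted genes of 36 (27.8% each, beside 15.8% and 18.2% of all genes), with a median of 0.03, and 14 to 5 with library size alone. Its enriched members include the 3 Y-box proteins, which package stored mRNA. *Ybx3* (chr6:131364855-131388476, overlapping the small gene *Gm22362*) was at 78.3, 73.8 and 103 CPM in the IPs and 11.9, 15.9 and 13.5 CPM in the inputs, 6.18-fold higher (log2 2.63 ± 0.18, adjusted p = 3.07e-09). *Ybx2*, the germ-cell member, was at 47.7, 52.2 and 77.7 CPM against 16.8, 25.4 and 24.9 CPM (log2 1.41 ± 0.19, adjusted p = 9.58e-06). *Cpeb1*, which binds the cytoplasmic polyadenylation element, was depleted at 226, 220 and 207 CPM against 404, 378 and 486 CPM (log2 -0.96 ± 0.11, adjusted p = 2e-06), and *Cpeb3* at -1.21 ± 0.14.

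Maternal-effect genes of the subcortical maternal complex and related factors were 7 enriched and 11 depleted of 25 (28% and 44%, beside 15.8% and 18.2% of all genes; median -0.17), and 9 to 6 with library size alone. *Uhrf1*, which brings the maintenance methyltransferase to DNA, was at 155, 157 and 151 CPM in the IPs against 393, 405 and 502 CPM in the inputs (log2 -1.49 ± 0.13, adjusted p = 5.45e-08). *Kdm1b*, a histone demethylase needed for maternal imprints, was at 138, 165 and 148 CPM against 734, 708 and 721 CPM (log2 -2.26 ± 0.11, adjusted p = 1.11e-10), with a span that overlaps 2 others. *Trim28*, a corepressor that protects imprints, was enriched at 21.4, 22.6 and 22.6 CPM against 6.63, 6.70 and 8.60 CPM (log2 1.61 ± 0.17, adjusted p = 5.58e-07), but its span overlaps *Zbtb45*, which was depleted (log2 -1.56 ± 0.27). Among zona pellucida and oocyte-secreted factors, 5 of 16 were enriched (31.2%) and 3 depleted (18.8%, near the 18.2% of all genes), against 9 and 2 with library size alone and 3 and 2 in the 12-library subset. *Oosp3* stood beside *Oosp1* (log2 1.54 ± 0.22), while *Kit*, a receptor tyrosine kinase of the oocyte, was at 179, 172 and 171 CPM against 331, 325 and 376 CPM (log2 -0.98 ± 0.09, adjusted p = 1.74e-07). *Astl*, the protease that cleaves the zona after fertilisation, was depleted as well (log2 -0.98 ± 0.19).

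mRNAs of the machinery for protein synthesis and respiration lay mostly above the centre. Of 86 cytosolic ribosomal protein genes, 26 were enriched and 0 depleted by edgeR, beside 18.2% of all genes depleted, with a median of 0.58. None was depleted at an unadjusted p under 0.05 or by DESeq2 either. The enriched share was 30.2%, beside 15.8% of all genes, but the count moved with single libraries: 13 were enriched without IP replicate 3, 12 without input replicate 1, 16 without input replicate 3, 16 in a fit of the L1C libraries alone and 9 in the 12-library subset. Leaving out IP replicate 1 or input replicate 2 gave 1 depleted gene. In the IP libraries 1, 2 and 3 the list's median was 0.27, 0.19 and 0.59, so the third lay above the others. Many of them are low in these libraries and have processed pseudogenes that can take their reads. *Rpl37a*, of the large subunit, was at 1.33, 1.60 and 2.24 CPM in the IPs against 0.388, 0.369 and 0.666 CPM in the inputs (log2 1.90 ± 0.31, adjusted p = 7.84e-05). *Rpl17* was at 87.7, 81.1 and 71.8 CPM against 38.4, 32.1 and 25.1 CPM (log2 1.33 ± 0.19). Nuclear-encoded subunits of oxidative phosphorylation gave 34 enriched (41.5%, beside 15.8% of all genes) and 2 depleted (2.44%, beside 18.2%) of 82 (median 0.54), and 55 to 1 with library size alone. Without IP replicate 2 or input replicate 3 there was 1 depleted. *Cox8a*, of cytochrome c oxidase, was at 113, 111 and 153 CPM against 36.5, 49.3 and 44.5 CPM (log2 1.53 ± 0.16, adjusted p = 4.58e-07), and *Ndufa4* reached 1.13 ± 0.12. The exceptions were *Sdha*, the flavoprotein of complex II (log2 -0.83 ± 0.19), and *Atp5g1* (log2 -0.74 ± 0.25). *Atp5g1*, at 1.38 to 3.34 CPM, was no longer called without the second IP library (adjusted p = 0.128) or without input replicate 1 or 3 (adjusted p = 0.0903 and 0.0847) or with library size alone (adjusted p = 0.182).

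All 13 mRNAs of mitochondrial DNA were enriched, beside 15.8% of all genes, with a median of 1.86, while 10 to 12 were with 1 library left out and 10 in the 12-library subset. *mt-Nd5*, a subunit of complex I, was at 212, 262 and 211 CPM in the IPs against 67.9, 53.3 and 35.1 CPM in the inputs (log2 2.13 ± 0.24, adjusted p = 1.55e-06), and *mt-Nd4l* reached 2.21 ± 0.27. Replication-dependent histones, whose mRNAs end without a poly(A) tail, were low, and 15 of 42 were enriched (35.7%) with 0 depleted by edgeR or DESeq2 (median 0.89), beside 15.8% and 18.2% of all genes, and 1 was depleted at an unadjusted p under 0.05. Without IP replicate 3, 9 were enriched and 1 depleted, without input replicate 1 there was 1 depleted as well, and the 12-library subset gave 5 enriched. The histone median was 0.14, 0.34 and 0.90 in the IP libraries 1, 2 and 3, so the third lay above the others. *Hist1h1b*, a linker histone, was at 2.04, 1.88 and 4.05 CPM against 0.339, 0.475 and 0.485 CPM (log2 2.63 ± 0.44, adjusted p = 0.000113). Labels name the libraries as made from polyA RNA and the methods name oligo-dT priming, so how far these histone mRNAs and mitochondrial transcripts are sampled alike in IP and input was not tested.

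Splicing factors of the SR, hnRNP, Snrp and Sf3 families gave 25 enriched and 9 depleted genes of 52 (48.1% and 17.3%, beside 15.8% and 18.2% of all genes; median 0.39), with 32 and 5 by library size alone and 15 enriched in the 12-library subset. *Hnrnpd*, which binds AU-rich elements, was at 14.9, 14.7 and 13.7 CPM in the IPs against 3.15, 2.53 and 3.03 CPM in the inputs (log2 2.31 ± 0.20, adjusted p = 4.27e-08), and *Hnrnpab* reached 2.43 ± 0.19. The spans of both overlap another gene. *Sf3b3*, a subunit of the U2 snRNP, was at 64.8, 60.1 and 49.0 CPM against 142, 111 and 153 CPM (log2 -1.23 ± 0.16), and *Hnrnpm* was at -1.41 ± 0.18. Proteasome subunits gave 18 enriched and 5 depleted of 39 (46.2% and 12.8%; median 0.38), with 27 and 2 by library size alone and 11 and 3 in the 12-library subset. *Psma4* (log2 1.58 ± 0.18) and *Psma2* (log2 1.00 ± 0.15), of the core particle, were enriched. *Psmd3* (log2 -1.65 ± 0.13) and *Psmd2* (log2 -1.10 ± 0.11), of the regulatory particle, were depleted. The span of *Psma4* overlaps *AY074887* and that of *Psmd3* overlaps *Gm12356*. The span of *Psma2* overlaps *AW209491*, which was depleted at 0 CPM in all IPs against 2.47, 2.22 and 4.12 CPM in the inputs.

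Translation initiation factors and their regulators gave 17 enriched and 7 depleted genes of 55 (30.9% and 12.7%, beside 15.8% and 18.2% of all genes; median 0.26), with 32 and 4 by library size alone and 11 and 4 in the 12-library subset. *Eif1b*, which takes part in start codon choice, was at 460, 382 and 436 CPM in the IPs against 172, 166 and 189 CPM in the inputs (log2 1.28 ± 0.15, adjusted p = 2.31e-06), and *Eif3h* reached 1.21 ± 0.18. *Eif4g2*, which serves cap-independent initiation, was at 146, 152 and 138 CPM against 386, 313 and 328 CPM (log2 -1.24 ± 0.11, adjusted p = 8.51e-08), and the eIF2 kinase *Eif2ak4* was at -1.02 ± 0.12.

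Cell division genes leaned to depletion. Of 51 genes of meiotic exit and the first mitosis, 10 were enriched and 21 depleted (19.6% and 41.2%, beside 15.8% and 18.2% of all genes; median -0.26), but 19 to 13 with library size alone. *Fbxo5* and *Fbxo43* code for both Emi inhibitors of the anaphase-promoting complex and lay on opposite sides. *Fbxo5* (Emi1) was at 339, 315 and 317 CPM in the IPs against 185, 169 and 195 CPM in the inputs (log2 0.82 ± 0.11, adjusted p = 7.19e-06). *Fbxo43* (Emi2), which holds the egg in metaphase II, was at 167, 162 and 162 CPM against 376, 325 and 346 CPM (log2 -1.09 ± 0.10, adjusted p = 1.36e-07). *Espl1*, the protease separase that cuts cohesin, was at 28.4, 27.3 and 34.2 CPM against 97.6, 144 and 139 CPM (log2 -2.08 ± 0.15, adjusted p = 6.61e-09). The meiotic cohesin *Smc1b* was enriched (log2 1.01 ± 0.17). Kinesins, the motors of spindle and transport, gave 1 enriched and 16 depleted genes of 34 (2.94% and 47.1%; median -0.45), 6 to 8 with library size alone, and 9 depleted in the 12-library subset. Without input replicate 1, and by DESeq2, there were 2 enriched. *Kif20a*, which acts in cytokinesis, was at 128, 110 and 104 CPM against 340, 313 and 409 CPM (log2 -1.64 ± 0.13, adjusted p = 1.96e-08), and *Kif24*, a centriolar kinesin, was at -1.24 ± 0.11. The exception was *Kif2a*, a microtubule depolymerase (log2 1.58 ± 0.17).

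Chromatin and DNA methylation factors gave 17 enriched and 14 depleted genes of 58 (29.3% and 24.1%, beside 15.8% and 18.2% of all genes; median 0.10), with 29 and 14 by library size alone and 11 and 14 in the 12-library subset. Beside *Suz12*, the H3K4 methyltransferase *Setd1b* was enriched, at 12.8, 12.2 and 18.7 CPM in the IPs against 4.80, 7.18 and 6.06 CPM in the inputs (log2 1.28 ± 0.18, adjusted p = 2.43e-05). *Daxx*, a chaperone of histone H3.3, was at 19.03, 18.9 and 21.6 CPM against 60.8, 71.8 and 69.8 CPM (log2 -1.76 ± 0.12, adjusted p = 2.41e-09). Early embryonic transcription factors were 13 enriched and 13 depleted of 48 (27.1% each; median 0.11), and 19 to 4 with library size alone. Without IP replicate 1, IP replicate 2 or input replicate 2, and in the 12-library subset, 8 were depleted. *Ctcf*, which organises chromatin loops, was at 51.9, 44.2 and 41.5 CPM against 25.1, 24.9 and 26.8 CPM (log2 0.84 ± 0.12). *Stat3*, the effector of LIF signalling, was at 70.4, 65.2 and 68.5 CPM against 234, 246 and 299 CPM (log2 -1.93 ± 0.13, adjusted p = 2.83e-09), and the RNA-binding pluripotency factor *Lin28a* was at -1.22 ± 0.10.

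Zinc-finger genes with a Zfp name, which are mostly transcriptional repressors, gave 21 enriched and 105 depleted genes of 358 (5.87% and 29.3%, beside 15.8% and 18.2% of all genes; median -0.26), 60 to 66 with library size alone and 11 to 77 in the 12-library subset. *Zfp280b* was at 161, 152 and 135 CPM in the IPs against 504, 440 and 560 CPM in the inputs (log2 -1.75 ± 0.11, adjusted p = 1.56e-09), and *Zfp46* was at -2.05 ± 0.13. *Zfp770* (log2 1.71 ± 0.18) and *Zfp318* (log2 1.95 ± 0.19) were enriched. Of 37 tested transcripts typical of the 2-cell stage, 10 were enriched and 2 depleted (27% and 5.41%, beside 15.8% and 18.2% of all genes; median 0.24), and 17 to 1 with library size alone. Without IP replicate 3, input replicate 1 or input replicate 3 there was 1 depleted. *Obox3*, a homeobox gene with many near-identical copies, was at 35.97, 38.1 and 39.1 CPM against 16.7, 12.6 and 17.5 CPM (log2 1.27 ± 0.15), and *Sp110* reached 1.17 ± 0.14. *Duxf3*, the Dux factor that starts the 2-cell programme, was depleted at 34.2, 34.7 and 47.8 CPM against 91.0, 133 and 113 CPM (log2 -1.53 ± 0.18, adjusted p = 3.17e-06), and it is 1 of several repeated copies. *Klf17* was depleted (log2 -0.55 ± 0.17, adjusted p = 0.0188), but not without the third IP library (adjusted p = 0.0826) or input replicate 1 or 3 (adjusted p = 0.0585 and 0.0664), nor with library size alone (adjusted p = 0.241).

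Named long non-coding RNAs were 7 enriched (23.3%, beside 15.8% of all genes) and 5 depleted (16.7%, near the 18.2% of all genes) of 30, against 13 and 2 with library size alone. Without IP replicate 3, 4 were enriched, without IP replicate 1 and input replicate 2 there were 2 and 3 depleted, and the subset gave 3 enriched. Nearly all of their spans (29 of 30) overlap another gene. *Malat1*, a nuclear RNA, was at 25.5, 32.3 and 29.3 CPM in the IPs against 20.6, 14.8 and 14.1 CPM in the inputs (log2 0.82 ± 0.18, adjusted p = 0.00167). *Snhg18* was enriched (log2 0.85 ± 0.21), while *Snhg5* (log2 -0.90 ± 0.19) and *Rpph1*, the RNA of ribonuclease P (log2 -2.89 ± 0.73), were depleted. *Rpph1* was at most 1.53 CPM in any L1C library. Genes that the study names were *Ybx3*, above, and *Commd3* (log2 0.86 ± 0.11), *Tceal8* (log2 1.00 ± 0.16, printed as Tcea18 in the study and read here as this gene), *Camk1d* (log2 1.12 ± 0.28) and *Rab3b* (log2 0.37 ± 0.10), which were all enriched, and *Sqstm1* (log2 -0.57 ± 0.17), an autophagy receptor, which was depleted. All but *Sqstm1*, which the study takes from other work, were named by the study from its own data, so their direction is not independent evidence. *Camk1d* was at 464, 540 and 1102 CPM in the IPs against 336, 325 and 309 CPM in the inputs, and without the third IP library its log2 IP/input was 0.63 (adjusted p = 0.0584). *Rab3b* was not called without the first IP library (adjusted p = 0.0504) or without the filter (adjusted p = 0.0879), and *Sqstm1* not without replicate 3 of the IP or of the input (adjusted p = 0.0625 and 0.0664) or with library size alone (adjusted p = 0.204).

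**Figure D3:**
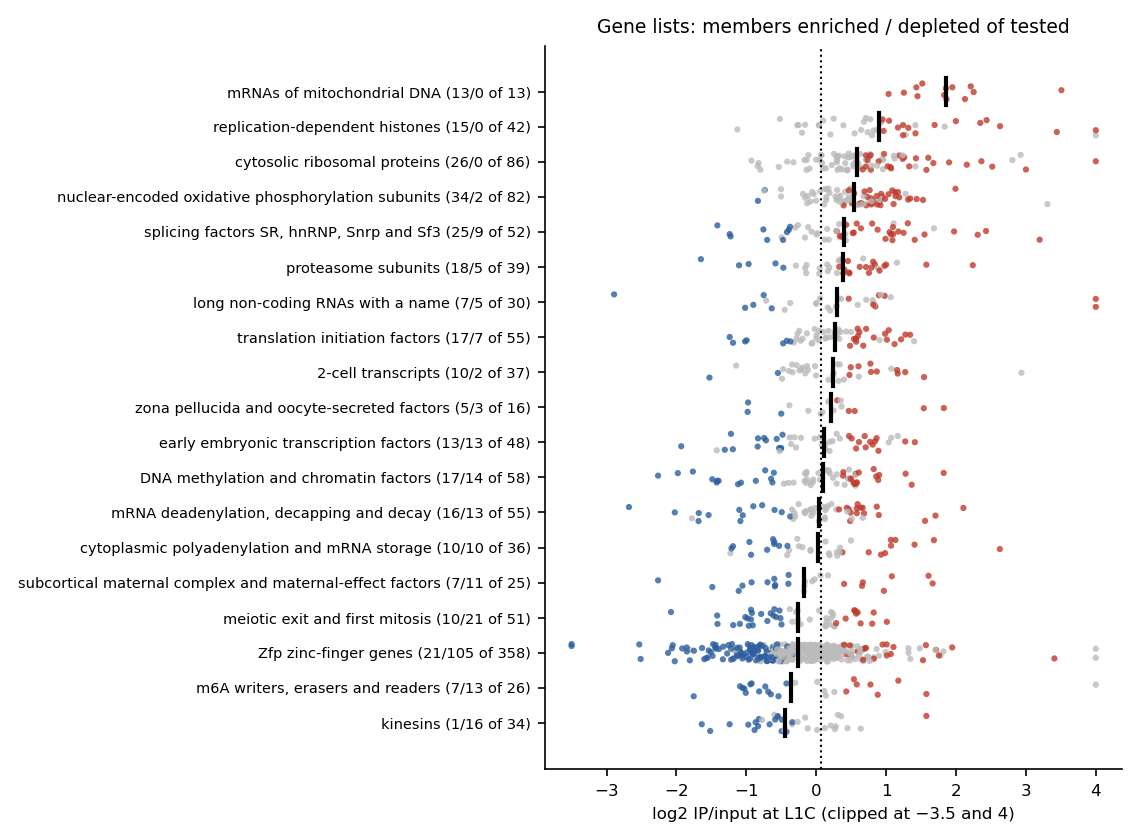
log2 IP/input at L1C of each tested member of 19 gene lists (x axis, clipped at -3.5 and 4), ordered by their medians, with red for enriched, blue for depleted and grey for uncalled members. Black bars are list medians, from -0.45 in kinesins to 1.86 in mitochondrial mRNAs, and the dotted line is the median of all genes at 0.07; the TMM scaling sets that centre.

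Across mRNAs the ratio went with the length of the transcript more than with the density of the motif. Tested protein-coding genes were sorted into quintiles by features of their representative transcript, the one with the longest coding sequence. From the shortest to the longest quintile of coding length the median log2 IP/input was 0.37, 0.12, -0.08, -0.25 and -0.28. In the shortest quintile, of at most 738 coding bases, 29.3% of genes were enriched and 6.23% depleted. In the longest quintile, of at least 2496 bases, 10.7% were enriched and 37.9% depleted. The highest minus the lowest quintile was -0.66, with an SD of 0.11 over replicates. Here and below, the SD over replicates was taken from same-numbered IP and input libraries on the scale of log2 (CPM + 0.5). It is not on the scale of the fit, and the numbers did not pair the libraries. The difference was -0.58 for exonic length, -0.45 for the number of exons, -0.33 for the longest exon and -0.44 for GC content. Enriched mRNAs had a median exonic length of 2115 bases and 7 exons, against 3686 bases and 12 exons in depleted mRNAs and 2611 bases and 8 exons in those not called.

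GGACT density moved the ratio little and not upward. From the lowest to the highest quintile of matches per kilobase, the median was 0.10, -0.01, -0.04, -0.08 and -0.01, a difference of -0.11 with an SD of 0.08 over replicates. The median was 0.963 matches per kilobase in enriched and 1.10 in depleted mRNAs, and 84.2% of enriched and 96.4% of depleted mRNAs held at least 1 match. Within quintiles of coding length the difference between high and low motif density was -0.29 to -0.04. Coding length, exon number, GC content and level go together, so the difference was also taken within quintiles of one of them, a choice made after these values were seen. Within quintiles of mean level in the 6 libraries the difference by coding length lay between -0.94 in the highest and -0.37 in the lowest quintile of level. Within quintiles of GC content it lay between -0.78 and -0.51. Exon number showed a difference of -0.13 to 0.10 within quintiles of coding length, around 0.

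In each L1C IP library, on the scale of log2 (CPM + 0.5) against the mean of the inputs, the difference by coding length was -0.468, -0.443 and -0.551. It was -0.417, -0.428 and -0.435 in the MII IPs and -0.277, -0.343 and -0.246 in the L2C IPs. The 3 L1C values, with an SD of 0.057, lie below all values of the other stages, but the nearest are -0.443 at L1C and -0.435 at MII. Values of a stage share the mean of its inputs and are not separate replicates, so the stage difference was not tested. Even with separate replicates, an exact permutation test of 3 against 3 cannot go below p = 0.10. By GC content the L1C values were -0.37, -0.45 and -0.17, against -0.71, -1.12 and -0.92 in the L2C IPs and -0.26, -0.06 and -0.32 in the MII IPs. The L1C and MII ranges overlap there, while all L2C values lie lower.

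**Figure D4:**
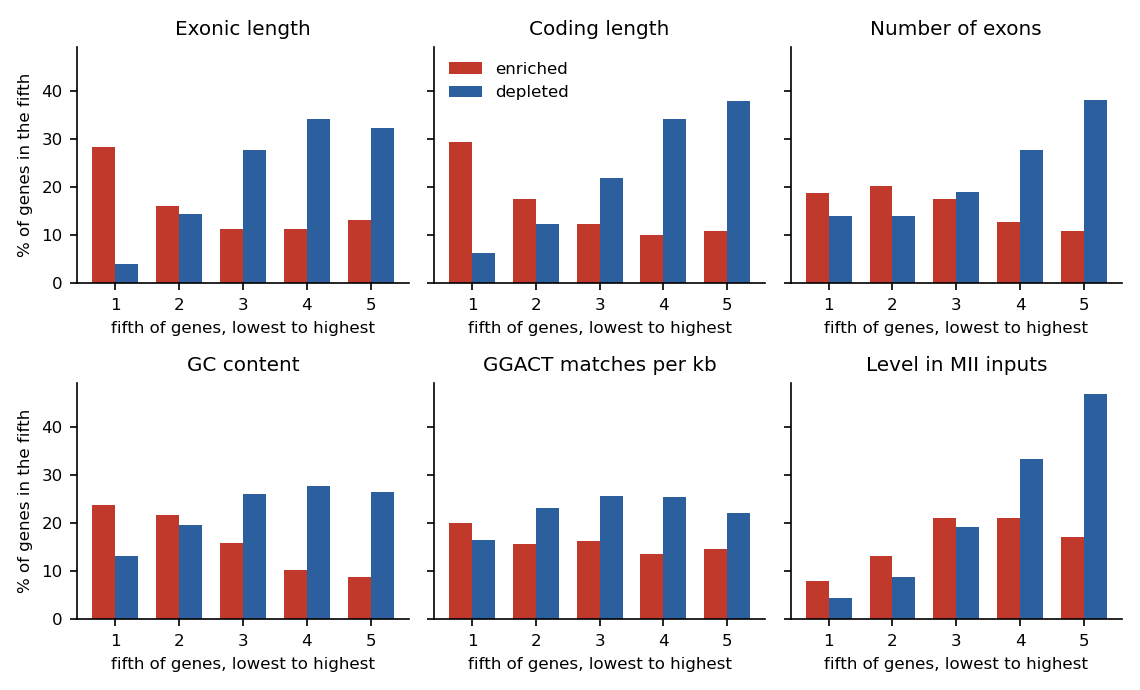
Percentage of protein-coding genes called enriched (red) and depleted (blue) at L1C in each quintile of 6 features of the transcript or its level, from the lowest to the highest quintile. For coding length the depleted share rises from 6.23% to 37.9% while the enriched share falls from 29.3% to 10.7%; for GGACT density both shares stay between 13.5% and 25.5%.

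mRNAs that the oocyte held at a high level were depleted more often than those it held at a low level. In quintiles of their level in the 3 MII inputs, the medians were 0.19, 0.14, 0.04, -0.10 and -0.30. In the highest quintile 17.0% were enriched and 46.7% depleted, and in the lowest 7.86% and 4.39%. The difference between these quintiles was -0.48, with an SD of 0.07 over replicates. Within quintiles of coding length the difference ranged from -0.77 in the longest to -0.03 in the shortest genes. Protein-coding genes with at most 3 counts in each MII input numbered 1684 and had a median of 0.15, with 150 enriched (8.91%) and 78 depleted (4.63%), against 16.8% and 24.5% of other protein-coding genes. Their median level in the L1C inputs was 0.254 CPM, against 9.98 CPM in other protein-coding genes, and how far level sets the number of calls was not tested.

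IP/input at L1C was then compared with that of the stages before and after. The difference of log2 IP/input from MII was called for 686 genes higher at L1C (3.13%) and 923 lower (4.21%), and from L2C for 981 higher (4.47%) and 1098 lower (5%). Both comparisons use the same 6 L1C libraries, so a shift in those enters both. Genes that differed from both stages in the same direction numbered 92 higher (0.419%) and 94 lower (0.428%). They were 177 higher by DESeq2, 50 higher and 54 lower with the replicate block, 59 lower in fits of the stages compared alone, 60 higher without IP replicate 3, and 26 and 26 in the 12-library subset. Of the 92, 59 have a span that overlaps another gene, and of the 94, 68 do, against 52.0% of all genes tested. At L1C itself 30 of the 92 were enriched and 30 depleted, while of the 94 genes 75 were depleted and 2 enriched.

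Named next are mRNAs with a mean of at least 20 CPM, spans of their own and IP and input libraries apart at L1C. Genes whose libraries meet at L1C were thus left out, whatever the size of their differences. The 4 of these mRNAs with the largest upward differences were depleted at all 3 stages and least at L1C. *Ddit4*, a stress-induced inhibitor of mTORC1, was at 16.6, 15.8 and 27.9 CPM in the L1C IPs and 28.7, 41.1 and 38.04 CPM in the inputs (log2 -0.83 ± 0.19), against -1.80 ± 0.19 at MII and -2.27 ± 0.19 at L2C. It was 0.96 higher than at MII (adjusted p = 0.0298) and 1.44 higher than at L2C (adjusted p = 0.00226). *Esrrb*, an orphan nuclear receptor of pluripotency, was at 24.1, 27.1 and 26.3 CPM against 29.1, 38.7 and 40.6 CPM (log2 -0.48 ± 0.14), against -1.77 ± 0.15 at MII and -1.42 ± 0.15 at L2C. Its differences were 1.29 ± 0.20 from MII and 0.94 ± 0.20 from L2C. *Poldip3*, an mRNA-binding protein tied to export and translation, had -0.69 ± 0.13 at L1C, -1.72 ± 0.13 at MII and -1.61 ± 0.12 at L2C. *Tmed9*, a cargo receptor of the early secretory pathway, had -0.53 ± 0.14 at L1C, -1.50 ± 0.14 at MII and -1.34 ± 0.14 at L2C. All 4 were lower in every IP than in every input at L1C, and the IP and input values lay closer together there. Input levels differed between stages as well. At MII, L1C and L2C they were 124 to 148, 28.7 to 41.1 and 107 to 122 CPM for *Ddit4*. For *Esrrb* they were 105 to 125, 29.1 to 40.6 and 32.1 to 37.1 CPM. For *Poldip3* they were 35.6 to 39.0, 29.8 to 39.7 and 388 to 483 CPM. For *Tmed9* they were 451 to 544, 52.0 to 78.1 and 193 to 239 CPM. Their part in the ratios was not tested. At L1C itself *Esrrb* was not called without input replicate 2 or 3 (adjusted p = 0.0523 and 0.0702) or with library size alone, nor *Tmed9* with library size alone (adjusted p = 0.203).

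On the other side, by the same criteria, *Zfp451*, a SUMO ligase, was at 38.01, 34.8 and 35.9 CPM in the L1C IPs and 82.1, 65.7 and 64.8 CPM in the inputs (log2 -0.97 ± 0.13), against 0.30 ± 0.13 at MII and 0.43 ± 0.13 at L2C. Its difference in log2 from MII was -1.27 ± 0.19 (adjusted p = 0.000225), and that from L2C was -1.40 ± 0.19 (adjusted p = 0.000176). Its IP level at MII, 36.6 to 43.6 CPM, was close to that at L1C, while its inputs were at 30.1 to 33.5 CPM at MII. *Sgsm1*, a regulator of small GTPases, was at 21.3, 21.6 and 24.0 CPM against 69.7, 84.0 and 85.3 CPM (log2 -1.83 ± 0.16), against -0.81 ± 0.16 at MII and -0.56 ± 0.18 at L2C. *Osbpl11*, an oxysterol-binding protein, had -1.18 ± 0.14 at L1C, 0.20 ± 0.14 at MII and -0.35 ± 0.13 at L2C. *Strn*, a scaffold of a phosphatase complex, was at 353, 352 and 312 CPM against 415, 363 and 390 CPM and was not called at L1C (log2 -0.20 ± 0.10), but was enriched at MII (0.54 ± 0.10) and at L2C (1.21 ± 0.10).

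**Figure D5:**
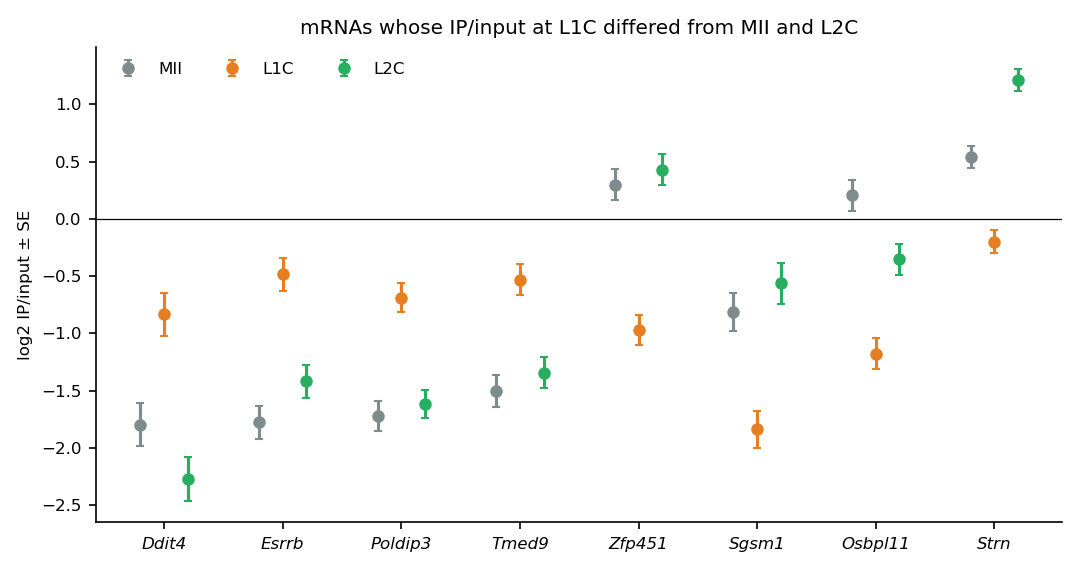
log2 IP/input (± SE from the fit) at MII (grey), L1C (orange) and L2C (green) of 8 mRNAs whose value at L1C differed from both other stages. *Ddit4*, *Esrrb*, *Poldip3* and *Tmed9* are less depleted at L1C, and *Zfp451*, *Sgsm1*, *Osbpl11* and *Strn* lie lower at L1C than at the other stages.

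Ratios of genes that share their span with another gene need care, since the counting targets were whole gene spans with introns and reads from the shared stretch can go to either gene. Of the 55471 targets, 45.5% overlap another on either strand. When the counts of overlapping spans were summed into loci, 1328 of the 1797 enriched genes with an overlap lay in an enriched locus (73.9%), but 182 lay in a depleted one (10.1%). Of the 2305 depleted genes with an overlap, 1957 lay in a depleted locus (84.9%) and 48 in an enriched one (2.08%). An enriched and a depleted gene stood in the same locus in 289 of 3332 joined loci with a called gene. Genes with spans of their own gave 1666 enriched and 1683 depleted of 10538. Beside the overlaps stated with their genes, the spans of *Mettl5*, *Virma*, *Igf2bp1*, *Igf2bp3*, *Prrc2a*, *Oosp3*, *Cpeb1*, *Cpeb3*, *Sp110*, *Obox3*, *Smc1b*, *Espl1*, *Ctcf*, *Stat3*, *Lin28a*, *Sf3b3*, *Hnrnpm*, *Rpl17*, *Sdha*, *Eif1b*, *Eif4g2*, *Zfp318*, *Kif2a*, *Kif20a*, *Rab3b*, *Camk1d* and *Sqstm1* overlap another gene, and *mt-Nd5* and *mt-Nd4l* overlap their neighbours.

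The span of *Fgfr2*, a receptor of fibroblast growth factors, is a case where genes with shared spans lay far apart in both directions at L1C. Its target runs over 2960900 bases (chr7:130162451-133123350) and overlaps 70 others. *Fgfr2* held 6318, 11923 and 13761 counts in the L1C IPs and 41844, 35608 and 28157 in the inputs (log2 -2.38 ± 0.15, adjusted p = 1.91e-09). Inside it, *Nsmce4a*, a subunit of the Smc5/6 complex, held 800, 924 and 1081 counts in the IPs against 63.0, 35.3 and 49.0 in the inputs (log2 3.63 ± 0.17, adjusted p = 7.46e-11). *Ate1*, an arginyltransferase, held 616, 679 and 986 counts in the IPs and 0 in all inputs, at least 132-fold higher by the floor of 3 counts per library, and *Tacc2*, a centrosomal protein, held 711, 606 and 1003 counts against 0, at least 118-fold higher. Summed over all 71 overlapping targets, the locus held 51431, 77246 and 87882 counts in the IPs against 105922, 89458 and 82328 in the inputs, and was depleted (log2 -0.99 ± 0.11, adjusted p = 4.85e-07). At MII and L2C the log2 IP/input was -0.06 and -0.37 for *Fgfr2*, 0.24 and 0.95 for *Nsmce4a*, and 0.12 and 0.61 for *Ate1*. The cause of the split at L1C was not tested. Across all genes, 12 held over 50 counts in each IP and at most 3 in each input. All 12 overlap another span, beside 52.0% of all genes tested. As 7 of them lie in this locus, they are not 12 separate cases.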

How the data were processed

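The authors quantified SLIM-seq reads with kallisto and tximport and deposited estimated counts per gene, not scaled to library size, with 55471 Ensembl gene spans on GRCm38 as targets. The version of kallisto is not given in the sources used here. Trimmomatic, HISAT2 and featureCounts, also listed in the processing notes, were used, per the methods, for the knockdown libraries. Labels name a stranded kit and the methods a Smart-seq2 protocol, and a strand setting of the counting is not given, so reads of a gene and an overlapping partner cannot be told apart. Deposited counts of the knockdown were not used.

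Counts were rounded and analysed in edgeR 4.0.16 (R 4.3.3) with TMM, filterByExpr over 6 groups and the quasi-likelihood test on all 18 SLIM-seq libraries together, with 1 coefficient per stage and library type. All 21950 genes tested were adjusted together by Benjamini-Hochberg. SE was taken as the size of log2 IP/input over the square root of F, and differences between stages as interaction terms. CPM are TMM-scaled. Depth per L1C library was 18969846 to 34455821 counts. Floors (3 counts) cover counting error only, while SE includes the spread between libraries. In simulated counts with 200 of 21501 genes changed, the edgeR fit recovered 147 and made 7 false calls. IP and input were set equal in all other genes there, so the simulation cannot check the TMM centre of the real data. GENCODE M21 provided transcripts, and 54937 of 55471 targets had the same span there.

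Named genes follow a rule: called, mean of at least 20 CPM, no overlapping span and separated libraries, the 8 (other types 4) largest and smallest ratios. To these were added the 2 smallest P values in each direction in each list, all m6A factors, the *Fgfr2* span and 6 genes of the study. The 4 largest stage differences in each direction met the same criteria, with calls of both stage differences in place of the call at L1C. 1 gene that the rule names is not reported here. Members and lists were chosen with earlier results of these data known. Lists are described by counts and medians. Alternatives were DESeq2 1.42.0, library size alone, TMM without mitochondrial genes, no filter, L1C libraries or the stages compared alone, the replicate number as a block, other thresholds, loci, spans without overlap, each L1C library left out, and, added after the data were seen, quintiles of level and GC content and a subset of 12 libraries. Tables used Python 3.11.15, pandas 2.3.3 and numpy 2.4.6, and figures matplotlib 3.10.9.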

Additional observations from a re-analysis of the deposited data

Results flagged for a closer look

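The IP/input ratio of 92 genes was higher, and that of 94 genes lower, at L1C than at both MII and L2C in the tests of the difference itself. Among mRNAs with a mean of at least 20 CPM, spans of their own and IP and input libraries apart at L1C, the largest differences in log2 IP/input, L1C minus MII and L1C minus L2C, were 0.96 and 1.44 for *Ddit4*, 1.29 and 0.94 for *Esrrb*, 1.03 and 0.93 for *Poldip3*, and 0.97 and 0.81 for *Tmed9*. In the other direction they were -1.27 and -1.40 for *Zfp451*, -1.02 and -1.27 for *Sgsm1*, -1.38 and -0.82 for *Osbpl11*, and -0.74 and -1.41 for *Strn*. All of these share the 6 L1C libraries.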

How the results depend on the processing

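With library size alone 6372 genes were enriched and 2613 depleted, with a log2 above 1 in size 1425 and 1817, and among spans without overlap 1666 and 1683. Leaving out 1 L1C library gave 2619 to 3199 enriched and 3472 to 3879 depleted genes, and the 12-library subset, an alternative chosen after seeing the data that leaves fewer samples, 1957 enriched genes. Genes higher at L1C than at both other stages numbered 177 by DESeq2, 50 with the replicate block, 33 without overlap, 26 in the subset and 60 to 104 with 1 library left out. Genes lower numbered 54 with the block, 59 in fits of the stages compared, 26 without overlap, 26 in the subset and 68 to 87 with 1 library left out. The cause was not tested.

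List medians minus that of all genes moved beyond the spread over replicates as follows. Without the filter they were 0.036 for decay, -0.27 for meiotic exit, 0.14 for chromatin and 0.26 for initiation. In the subset they were -0.25 for meiotic exit, 0.15 for initiation and 0.35 for histones. With 1 library left out they ranged from -0.079 to 0.020 for decay, 0.066 to 0.26 for 2-cell transcripts, -0.054 to 0.16 for chromatin, -0.12 to 0.10 for early factors and 0.16 to 0.21 for initiation. Among genes of at least 10 CPM the feature differences were -0.69 for exonic length, -0.58 for exons and -0.84 for coding length, and, in alternatives chosen after seeing the data, the mean difference over quintiles of level was -0.61 for coding and -0.53 for exonic length, and over quintiles of GC content -0.65 for coding length.

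Same-numbered IP and input libraries deviated with r of 0.222, -0.461 and -0.0513, so the numbers did not pair them. Between other numbers, r was 0.759 for IP 3 with input 2, 0.517 for IP 2 with input 1 and 0.233 for IP 1 with input 3. It was -0.542 to -0.205 for the rest, and a pairing by these values was not tested. The replicate block, by number, gave 3033 enriched and 3653 depleted genes. Of 119 named genes called, 105 kept direction and call by DESeq2, under the scalings, without the filter, with L1C alone, with the block, with each library left out and in the subset. Named genes were not recalled by locus, and the locus of *Nsmce4a*, *Ate1* and *Tacc2* was depleted.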
